A study of Mus musculus with 2 samples.

Results

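Conventional dendritic cells (cDCs) were the 540 cells that the authors annotated with this type among 44371 cells of mouse liver metastases, 301 in the control library and 239 in the library with silenced Zdhhc17. The metastases grew from 4T1 cells, a triple-negative breast cancer line, injected into the spleen of female BALB/c mice of 6-8 weeks and dissected 14 days later. The injected cells carried a lentiviral pLKO.1 vector under puromycin selection, with either a non-targeting scrambled shRNA (shSCR, the control) or an shRNA that silences Zdhhc17, a palmitoyltransferase gene (shZdhhc17). The shRNA was in the injected cancer cells, so the cDCs, which are host cells, were not themselves targeted. The hosts of both groups lacked a spleen, since it was removed within minutes of the injection. Each group was 1 BD Rhapsody library (a microwell capture) that pooled metastases of 3 mice in equal cell numbers, so single mice cannot be told apart and no test between the groups was possible. The level of Zdhhc17 itself was not analysed here.

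cDCs take up antigen in tissues and present it to T cells. They depend on the receptor FLT3 and its ligand and form separate lineages. cDC1 cells carry the chemokine receptor XCR1 and the dead-cell receptor CLEC9A and are specialised in cross-presentation to CD8 T cells. cDC2 cells, some of which express the lectin CD209A, mainly prime CD4 T cells. Mature cDCs of either lineage gain the chemokine receptor CCR7, which guides them to lymph nodes. Plasmacytoid dendritic cells (pDCs) are a separate lineage known for type I interferon.

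The label could not be checked against expression, because levels per gene and cell were not analysed here. The cDC annotation is therefore the authors' own, and no subtype is named below. The gene table bears on it only through a flag for the 1000 most variable genes over all cells of the study, those behind the UMAP described below, 3.51% of the 28523 genes listed. The marker genes of the cDC lineages were all listed. Xcr1 (GRCm38 chromosome 9, 123852315 to 123862029, minus strand), Clec9a (chromosome 6, 129408862 to 129424763, plus strand) and Ccr7 (chromosome 11, 99144196 to 99155077, minus strand) carried the flag. Flt3 (chromosome 5, 147330741 to 147400489, minus strand) and Cd209a (chromosome 8, 3743397 to 3748984, minus strand) did not. All 5 are annotated as protein-coding.

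Among 35 different genes on 4 cDC marker lists, 12 were flagged as variable (34.3%), against 3.51% of all genes listed. The flag was not particular to cDC markers. It was carried by 5 of 5 neutrophil genes and 4 of 5 Kupffer cell genes, but by 1 of 3 NK cell genes and 0 of 3 genes of 4T1 epithelium. Of the 10 cDC1 genes, 4 were flagged: Xcr1, Clec9a, the integrin gene Itgae and Naaa, which encodes a lysosomal amidase. The transcription factor genes Batf3 and Irf8, which cDC1 development requires, were listed without the flag. Of the 10 cDC2 genes, 3 were flagged: the transcription factor gene Irf4, the lectin gene Mgl2, and Cd7. Of the 10 genes of mature migratory cDCs, 3 were flagged: Ccr7 and the chemokine genes Ccl22 and Ccl17. The antigen presentation genes H2-Ab1 and Cd74 were flagged as well, while Zbtb46, a transcription factor gene of the cDC lineage, and the integrin gene Itgax were not. The flag refers to all cells together, so it does not show which cells expressed a gene, and many of these genes are also used by B cells, macrophages or T cells.

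The cDCs made up a small part of the metastases in both libraries. There were 301 cDCs among 22860 shSCR cells, a share of 1.32% (exact 95% binomial interval 1.17 to 1.47). There were 239 among 21511 shZdhhc17 cells, a share of 1.11% (0.975 to 1.26). These exact intervals overlapped, and by that rule 3 of the 17 annotated types were lower in shZdhhc17 (17.6%) and 4 higher (23.5%). The ratio of the cDC shares, shZdhhc17 over shSCR, was 0.844 with a log-normal 95% counting interval from 0.713 to 0.999. By this second rule, an interval of the ratio that leaves out 1, cDCs were among 4 types that were lower (23.5% of the 17). The upper bound lay so close to 1 that the removal of doublets and unknown cells from the denominator moved it to 1.00, and the interval included 1 in 9 of 11 alternative settings. All intervals cover counting error only, and the spread between mice is unknown.

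**Figure D1:**
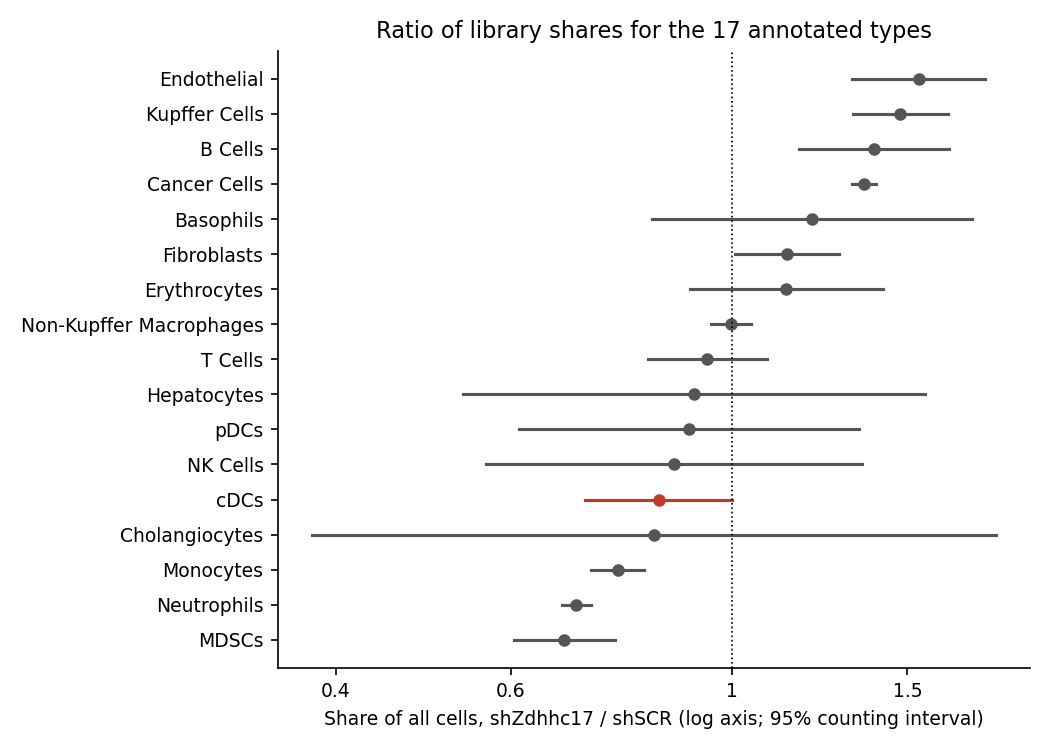
Ratio of the share of all cells in shZdhhc17 over that in shSCR for the 17 annotated types (x axis, log scale), with points for the ratios and lines for the 95% counting intervals. The cDC ratio of 0.844 (red) lies between those of NK cells and of cholangiocytes, closer to 1 than those of monocytes, neutrophils and MDSCs.

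The direction of the cDC difference depended on the reference population. Cancer cells, which were a larger part of the shZdhhc17 library (36.9% against 27.2%), enter the share of all cells. Among cells other than cancer cells, cDCs made up 1.81% of shSCR and 1.76% of shZdhhc17, a ratio of 0.973 (0.823 to 1.15). Among the 11 immune types they made up 2.11% and 2.15%, a ratio of 1.02 (0.863 to 1.21). Among the 8 myeloid types, counting pDCs, they made up 2.21% and 2.29%, a ratio of 1.04 (0.877 to 1.23). Without neutrophils the ratio was 0.914 (0.774 to 1.08), with cDCs at 4.30% and 3.93% of the 7 remaining types. The authors placed cDCs in a class named Monocyte-Derived with monocytes, Kupffer cells and non-Kupffer macrophages. Within this class cDCs made up 4.86% in shSCR (4.34 to 5.43) and 4.32% in shZdhhc17 (3.80 to 4.89). With each of these denominators the exact intervals of the libraries overlapped.

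Set against single myeloid types, cDCs were fewer per Kupffer cell, the resident macrophage of the liver sinusoids. There were 55.7 cDCs per 100 Kupffer cells in shSCR (95% counting interval 48.4 to 64.2) and 31.9 in shZdhhc17 (27.5 to 36.9), a ratio of 0.572 (0.467 to 0.700). Among 7 comparisons with other myeloid types, this was the 1 (14.3%) in which the intervals of the libraries were separate, with cDCs lower in shZdhhc17. Kupffer cells themselves numbered 540 in shSCR and 750 in shZdhhc17, 2.36% and 3.49% of all cells, with separate exact intervals. Each such ratio depends on both types and is not a difference in cDCs alone. Per 100 neutrophils there were 4.56 cDCs in shSCR and 5.52 in shZdhhc17, a ratio of 1.21 (1.02 to 1.44). Per 100 cells annotated as MDSCs, the myeloid cells named for suppressing T cells, there were 42.5 and 52.9, a ratio of 1.24 (1.01 to 1.53). In these 2 of 7 comparisons (28.6%) the interval of the ratio lay above 1, while the intervals of the libraries overlapped. For MDSCs the interval included 1 without the top 5% of UMIs (1.24, 0.997 to 1.53) and in cells of low mitochondrial percent (1.37, 0.999 to 1.89). As shares of all cells, neutrophils were 28.8% in shSCR and 20.1% in shZdhhc17, and MDSCs 3.10% and 2.10%.

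The remaining ratios to myeloid types had intervals that included 1. Per 100 monocytes there were 13.5 cDCs in shSCR and 14.9 in shZdhhc17 (ratio 1.10, 0.916 to 1.32). Per 100 non-Kupffer macrophages there were 9.63 and 8.15 (ratio 0.846, 0.709 to 1.01). cDCs outnumbered pDCs in both libraries, with 557 cDCs per 100 pDCs in shSCR and 520 in shZdhhc17 (ratio 0.932, 0.607 to 1.43). The same held against basophils, with 568 and 398 cDCs per 100 (ratio 0.701, 0.467 to 1.05). Outside the myeloid types, there were 71.3 and 63.7 cDCs per 100 T cells, to which cDCs present antigen (ratio 0.894, 0.717 to 1.11), and 669 and 646 per 100 NK cells (ratio 0.966, 0.605 to 1.54). Per 100 B cells there were 136 and 82.4 (ratio 0.608, 0.476 to 0.776), and per 100 cancer cells 4.85 and 3.01 (ratio 0.622, 0.523 to 0.739), both with separate intervals, 2 of these 4 comparisons (50%).

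**Figure D2:**
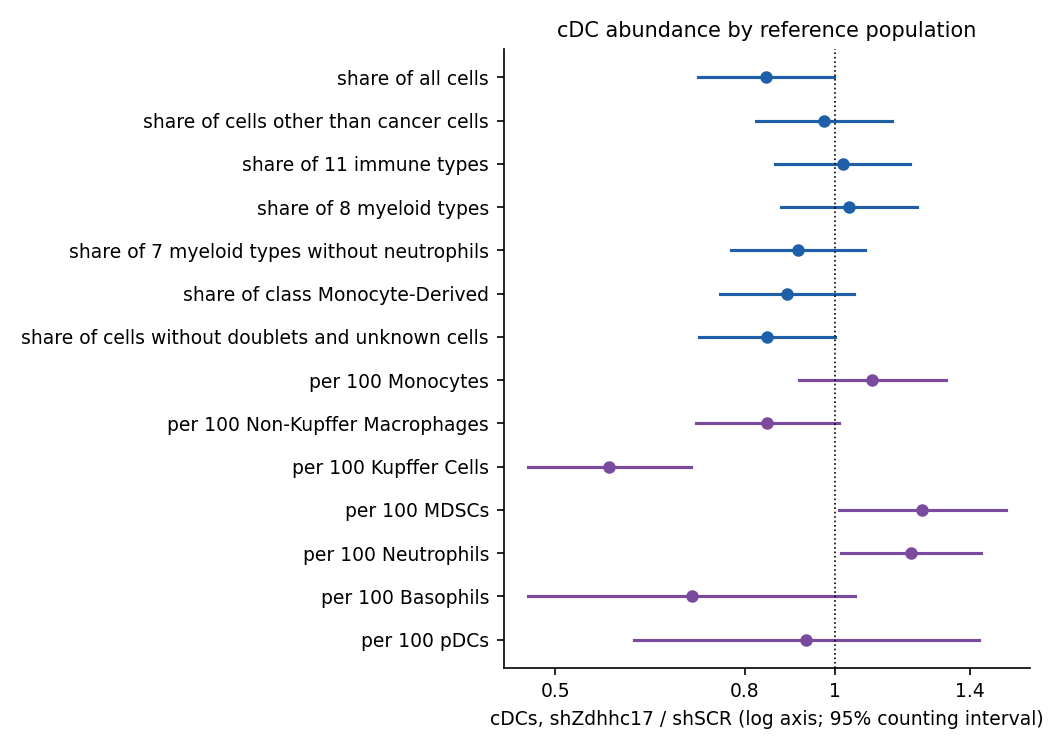
Ratio of cDC abundance in shZdhhc17 over shSCR (x axis, log scale) as a share of 7 reference populations (blue) and per 100 cells of 7 other myeloid types (purple), with 95% counting intervals. The ratios run from 0.572 per Kupffer cell to 1.24 per MDSC, on both sides of 1.

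The authors' first clustering placed the cDCs in 2 clusters, numbered 80 and 99, and neither held a cell of another type. Cluster 80 held 298 cells and cluster 99 held 242. In shSCR they were nearly equal, with 155 and 146 cells. In shZdhhc17 they were 143 and 96. Cluster 99 thus made up 48.5% of shSCR cDCs (42.7 to 54.3) and 40.2% of shZdhhc17 cDCs (33.9 to 46.7), a ratio of 0.828 (0.682 to 1.01). Cluster 80 made up the rest, 51.5% and 59.8%, a ratio of 1.16 (0.999 to 1.35). Because these shares sum to the whole, they are 1 difference and not 2.

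As a share of all cells, cluster 80 had a ratio near 1 and cluster 99 a lower one. Cluster 80 was at 0.678% in shSCR and 0.665% in shZdhhc17, a ratio of 0.980 (0.782 to 1.23). Cluster 99 was at 0.639% (0.540 to 0.751) and 0.446% (0.362 to 0.545), a ratio of 0.699 (0.540 to 0.903). The exact intervals of cluster 99 overlapped narrowly, while the interval of its ratio lay below 1. All cells include the cancer cells, a larger part of shZdhhc17 (36.9% against 27.2% in shSCR). Apart from cDCs, no other reference population was used for the clusters. Whether the ratio of cluster 99 stays below 1 without cancer cells in the denominator was therefore not tested. The difference between the clusters is the change in makeup given above, whose interval included 1.

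The initial clusters of all types gave the background for these ratios. Of 121 initial clusters with at least 50 cells of 1 type, 32 were lower in shZdhhc17 as shares of all cells with separate exact intervals (26.4%), 30 were higher (24.8%), and 44 had a ratio whose interval lay below 1 (36.4%). Cluster 99 was among the 44 but not among the 32. Of these 121 clusters, 32 had a lower ratio than cluster 99 and 88 a higher one. As shares of their own type, 30 of 119 clusters were lower with separate intervals (25.2%) and 34 were higher (28.6%), and neither cDC cluster was among them. The ratios of those 119 clusters ran from 0.00900 to 3.61 with a median of 0.974.

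The makeup was also compared at like depth per cell. The median was 5424 UMIs (unique molecular identifiers, a count of captured RNA molecules) in cluster 80 and 5901.5 in cluster 99 of shSCR, and 4539 and 4929.5 in shZdhhc17. With the libraries matched within 5 classes of UMIs, cluster 99 had a ratio of 0.832 among cDCs (0.685 to 1.01). As a share of all cells matched within 10 classes it had a ratio of 0.666 (0.515 to 0.861). Among cells with low mitochondrial percent its share of all cells had a ratio of 0.776, and the interval then included 1 (0.544 to 1.11).

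**Figure D3:**
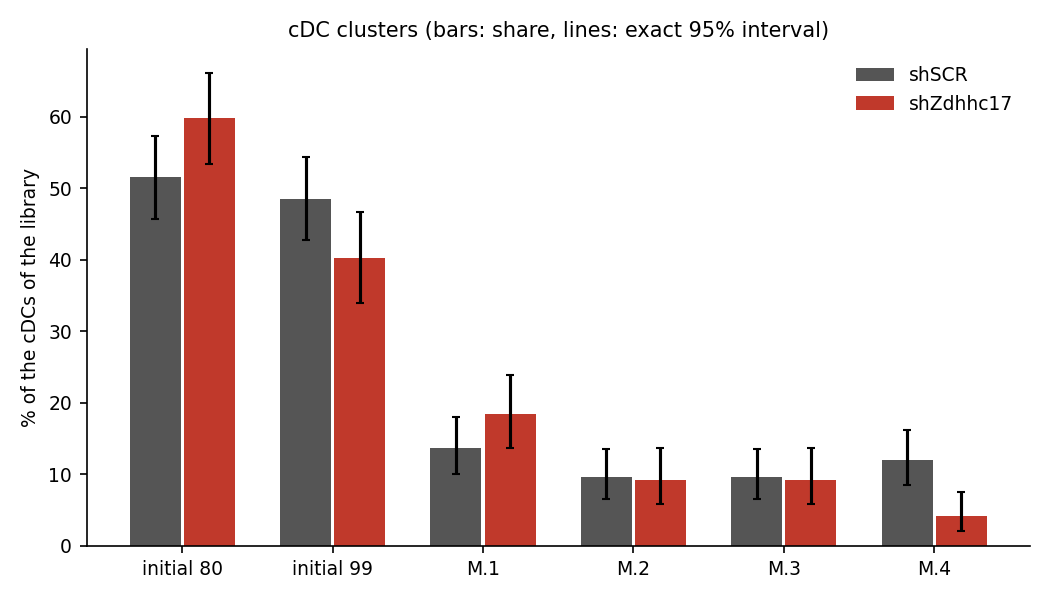
Share of the cDCs of each library (y axis, percent) in the initial clusters 80 and 99 and in the 4 largest re-clustered groups M.1 to M.4, with bars for shares and lines for exact 95% intervals. Only in M.4, at 12.0% and 4.18%, do the intervals of shSCR (grey) and shZdhhc17 (red) not overlap among the 6 shown.

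The authors' second clustering, of the cDCs alone, gave 43 groups named M.1, M.2 and so on. Most were small, with 31 groups of fewer than 10 cells holding 162 cDCs, and the smallest held 3. Groups of at least 50 cells were M.1 (85 cells), M.2 (51) and M.3 (51), with 187 cells together. The largest group under that size was M.4, with 46. Of the 43 groups, 10 lay within cluster 80 and 18 within cluster 99, and 15 drew cells from both. In those, 42 cells in all (7.78% of cDCs) belonged to the cluster that held fewer of the group. M.1 and M.3 were almost wholly from cluster 80 (84 of 85 and 50 of 51 cells), and M.2 mostly from cluster 99 (47 of 51 cells).

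None of the 3 groups of at least 50 cells had separate exact intervals, against 32.9% of 286 such groups over all types. That background was not matched for size. It includes groups of 14135 cancer cells and 10922 neutrophils, against 540 cDCs, and intervals separate more easily with more cells. M.1 held 41 shSCR and 44 shZdhhc17 cells, 13.6% and 18.4% of cDCs (ratio 1.35, 0.915 to 2.00). M.2 and M.3 each held 29 shSCR and 22 shZdhhc17 cells, 9.63% and 9.21% of cDCs (ratio 0.955, 0.564 to 1.62). M.4 held 36 shSCR and 10 shZdhhc17 cells, and was named after its values were seen. It made up 12.0% of shSCR cDCs (8.52 to 16.2) and 4.18% of shZdhhc17 cDCs (2.02 to 7.56), a ratio of 0.350 (0.177 to 0.690). It drew on both initial clusters, with 28 shSCR and 6 shZdhhc17 cells from cluster 80 and 8 and 4 from cluster 99.

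M.4 was the 1 of the 43 cDC groups with separate exact intervals (2.33%). Over all types, 171 of 1433 re-clustered groups were separate in either direction (11.9%), and 80 were lower in shZdhhc17 (5.58%). That background was not matched for group size, so the lower cDC share is not read as a result about cDCs. The cDC groups held 12.6 cells on average, and most of the 43 were under 10 cells. Averages over the 13 second clusterings ran from 4.40 to 76.0 cells. The M.4 cells had median UMIs of 3946 in shSCR and 3833 in shZdhhc17, the lowest of the 4 largest groups in shSCR. Matching on UMIs left the M.4 ratio at 0.280 (0.143 to 0.546). A further 3 groups held only shSCR cells (12 in all) and 4 only shZdhhc17 cells (also 12), none with more than 6 cells.

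On the authors' UMAP, a map in which cells with like expression lie near each other and distances carry no unit, the cDCs formed an island of their own. The 10 nearest cells of every cDC were all cDCs, and the rectangle that spans the 540 cDCs held no other cell. The nearest cell of another type was a pDC for each of the 540. Clusters 80 and 99 lay side by side within the island, and 99.2% of the 10 nearest cells came from the same initial cluster as the cell itself. Labels, clusters and map all come from expression in the same cells, so their agreement is no separate check of the cDC label. The libraries were intermixed. In cluster 80, shZdhhc17 cells made up 48.0% of cells, 45.8% of the neighbours of shSCR cells and 49.2% of the neighbours of shZdhhc17 cells. In cluster 99 these values were 39.7%, 41.5% and 45.9%.

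Cluster 99 reached from the middle of the island to a dense knot at its upper end, and its libraries were not evenly spread along that length. At or above the median y coordinate of the cluster lay 82 shSCR and 39 shZdhhc17 cells, 56.2% and 40.6% of the cluster. Below that median lay 64 and 57 cells. At or above the upper quartile of y, within the knot, lay 43 and 18 cells, 29.5% and 18.8% of the cluster, in 10 of the re-clustered groups led by M.7. As shares of all cDCs, the cells at or above the median were 27.2% in shSCR and 16.3% in shZdhhc17, and those below it 21.3% and 23.8%. Within cluster 80 a thin arm at an x coordinate below 0.72 held 9 shSCR and 13 shZdhhc17 cells. These limits were set after the map was seen, and the counts were not tested.

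**Figure D4:**
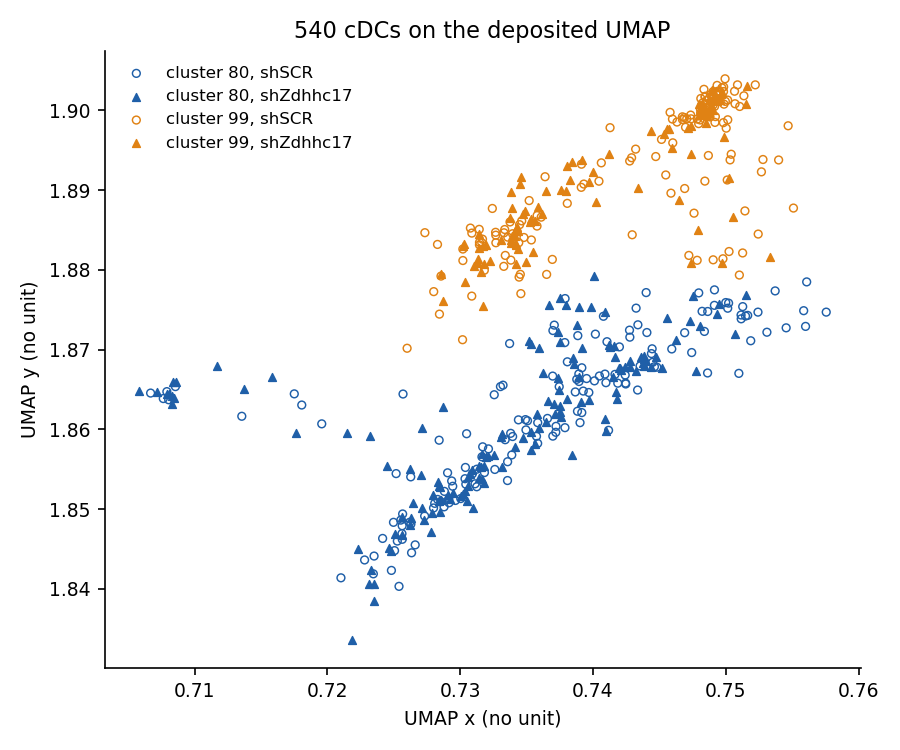
The 540 cDCs on the deposited UMAP (both axes without unit), with initial cluster 80 in blue and 99 in orange, shSCR cells as open circles and shZdhhc17 cells as filled triangles. The clusters occupy adjoining parts of the island, and cells of both libraries are found throughout each, with 82 shSCR and 39 shZdhhc17 cells at or above the median y coordinate of cluster 99.

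The cDCs of shZdhhc17 yielded fewer UMIs per cell. In shSCR the cDCs ranged from 615 to 35996 UMIs with a median of 5700 and quartiles of 3803 and 7996. In shZdhhc17 they ranged from 690 to 22280 with a median of 4761 and quartiles of 3519 and 6343.5. The distributions overlapped over nearly their whole range, and the ratio of the medians was 0.835. The ratio was not uniform along the distribution, with 1.09 at the 10th percentile, 0.925 at the lower quartile, 0.793 at the upper quartile and 0.879 at the 90th percentile.

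Both initial clusters shared this difference. The ratio of median UMIs was 0.837 in cluster 80 and 0.835 in cluster 99. At the 10th percentile the clusters differed, with 2641 UMIs in shSCR and 2359.2 in shZdhhc17 for cluster 80, and 1547 and 2097.5 for cluster 99. Of the 8 cells of cluster 99 with fewer than 1000 UMIs, 7 were from shSCR, and cluster 80 had 2 such cells, both from shZdhhc17. All 17 annotated types had a lower median in shZdhhc17, with ratios from 0.551 to 0.926, and cDCs had the fourth highest ratio. Lower depth in shZdhhc17 was therefore not particular to cDCs. RNA content per cell, capture and the sequencing depth of the library cannot be told apart here.

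The number of detected genes followed the UMIs. The median was 2123 genes in shSCR cDCs (quartiles 1654 and 2647) and 1930 in shZdhhc17 cDCs (1571.5 and 2300.5), a ratio of 0.909. Among cDCs with 4000 to 6000 UMIs, which were 79 in shSCR and 89 in shZdhhc17, the medians were 1976 and 1940 genes. Depth was not fully matched in this window, with median UMIs of 5040 in shSCR and 4803 in shZdhhc17. The shZdhhc17 median of genes lay between the quartiles of the shSCR cDCs in the window, 1851 and 2171.5 genes.

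Mitochondrial transcripts, whose share rises in stressed or leaking cells, were at similar levels in the cDCs of both libraries. The median was 5.43% of UMIs in shSCR (quartiles 4.44 and 6.64) and 5.27% in shZdhhc17 (4.27 and 6.50). More than 10% was found in 10 of 301 shSCR cDCs and 4 of 239 shZdhhc17 cDCs, and of these 14 cells 11 were in cluster 99. Of the cDCs without a single mitochondrial UMI, 3 were in shSCR and 1 in shZdhhc17, and all 4 belonged to cluster 99. In cluster 99 the medians were 5.74% and 5.82% at or above its median y coordinate on the UMAP, and 5.03% and 5.44% below it.

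**Figure D5:**
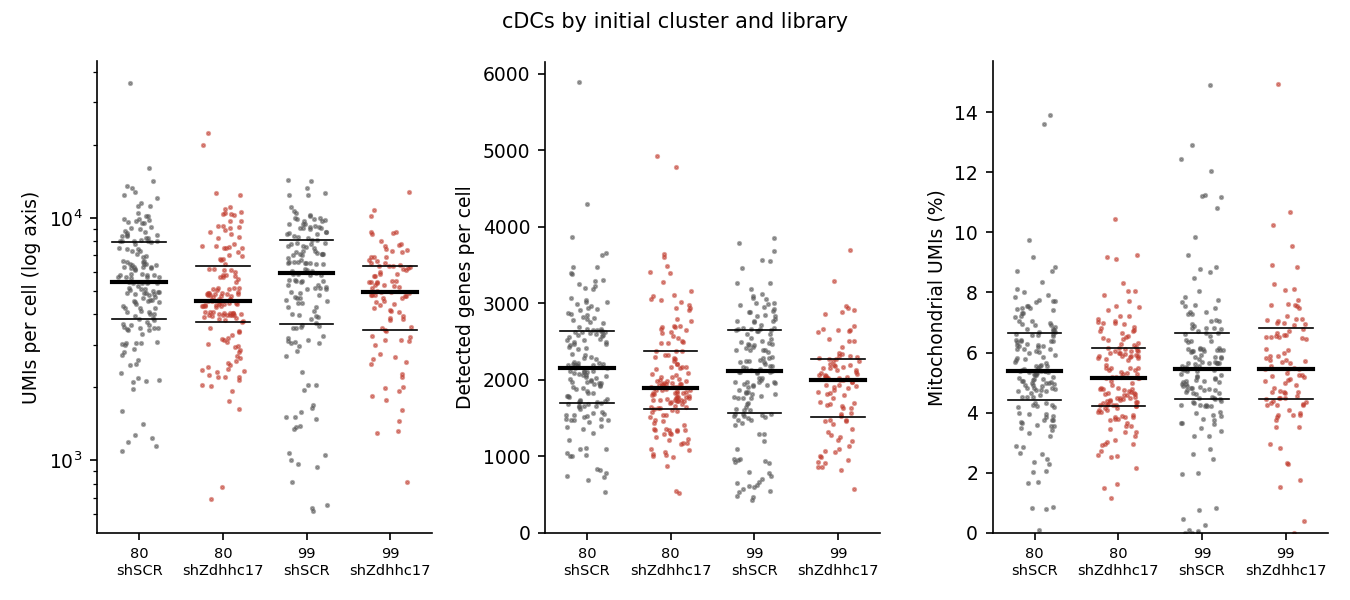
UMIs (log axis), detected genes and mitochondrial percent per cDC (y axes) by initial cluster and library, with a point per cell, thick lines at the medians and thin lines at the quartiles. The median UMIs are lower in shZdhhc17 in both clusters (4539 against 5424 and 4929.5 against 5901.5), with wide overlap, while median mitochondrial percent lies between 5.15 and 5.47 in all 4 sets.

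Compared with the other myeloid types, cDCs were of middling depth. Their median of 5700 UMIs in shSCR and 4761 in shZdhhc17 was near that of monocytes (5926 and 4371). It was below those of non-Kupffer macrophages (8362 and 6959.5), Kupffer cells (10071 and 8256) and MDSCs (15991.5 and 12587). It was above those of pDCs (3238.5 and 2764.5) and neutrophils (2464 and 1418). These orders were the same in both libraries except between cDCs and monocytes, where monocytes were higher in shSCR and lower in shZdhhc17.

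At 4000 to 6000 UMIs, cDCs had about as many genes as monocytes, with medians of 1976 and 1940 against 1932 and 1963. They had fewer than non-Kupffer macrophages (2025 and 2053), Kupffer cells (2103 and 2129) and MDSCs (2264 and 2267) in both libraries, and more than neutrophils (1406 and 1514). Depth still differed within that window. Median UMIs there were 5040 and 4803 in cDCs, 4851 and 4802.5 in monocytes and 4912 and 4866 in neutrophils. They were higher in non-Kupffer macrophages (5094 and 4979), Kupffer cells (5237 and 5190) and MDSCs (5134.5 and 4944). The few pDCs of that depth, 12 and 5 cells, had 2039.5 and 2116. Median mitochondrial percent was lower in cDCs than in Kupffer cells (7.06 and 6.86), pDCs (7.06 and 7.22), MDSCs (6.26 and 6.34) and non-Kupffer macrophages (6.06 and 6.03) in both libraries. Monocytes were higher than cDCs in shSCR and lower in shZdhhc17 (5.67 and 5.10), and neutrophils were lower in both (1.72 and 0.656). Each library gives 1 value per type, so these orders rest on 2 values each.

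Few cDCs had very high UMI counts. A limit of 15000 UMIs cannot count pairs of cells captured in 1 well. The median cDC had 5700 UMIs in shSCR and 4761 in shZdhhc17, and a pair of such cells would stay below it. More than 15000 UMIs were found in 4 cDCs, 2 per library, all from cluster 80. The highest, with 35996 UMIs and 5889 genes, was an shSCR cell of M.6, and a further M.6 cell from shZdhhc17 had 19924. The 2 others were in M.36. No cell of the second clustering of cDCs was set apart by the authors as a doublet or unknown, as was the case in 5 of their 13 second clusterings. Of the 2723 doublet and unknown cells of the study, none had a cDC as its nearest annotated neighbour on the UMAP. The cDCs lay apart from all other cells on that map, so this count cannot find doublets that carry the cDC label. No further doublet caller was run, since it would need expression per gene.

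The libraries shared 609 cell labels, and 13 cDCs carried one (2.41%, against 2.75% of all cells). No shared label belonged to a cDC in both libraries, and no shared label had the same UMI count in both. The library totals were 214842365 UMIs for shSCR and 172527305 for shZdhhc17, of which cDCs contributed 0.847% and 0.722%.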

How the data were processed

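Per the file headers, cells come from the BD Rhapsody pipeline, and the authors corrected for ambient RNA, clustered the cells, clustered sets of them again and annotated types. Gene symbols are those of GRCm38 (mm10). The submitters' processing notes list Seurat 4.1.0. The tool for ambient RNA is not given in the sources used here. Per the file headers, the deposited table holds counts of UMIs and genes for each cell, the percent of mitochondrial UMIs, and UMAP coordinates, which are a score without unit. No cell had fewer than 500 UMIs or more than 15.0% mitochondrial UMIs. Median depth was 7105 UMIs per cell in shSCR and 6732 in shZdhhc17. These medians also depend on the mix of types in each library. Within single types the ratio of medians, shZdhhc17 over shSCR, ran from 0.551 to 0.926.

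cDCs were taken by the authors' type label, and cells labelled doublet or unknown stayed in the denominators. Shares carry exact (Clopper-Pearson) 95% intervals, and ratios carry log-normal counting intervals. A share was called higher or lower if the 2 exact intervals were separate. Overlap does not show that shares are equal. Matching on UMIs gave each class of UMIs the same weight in both libraries. No test was made between groups of 1 library. Alternatives changed the denominator, the UMI and mitochondrial limits and the matching. Marker positions are from GENCODE M21. Named genes are members of the marker lists, restricted in the text to those with a cDC role, since expression per gene and cell was not analysed here. The members, lists, clusters and alternatives were chosen with earlier results of these data known. The interval code was tested on simulated data. Python 3.11.15, pandas 2.3.3, SciPy 1.17.1 and matplotlib 3.10.9 were used. The tables of neutrophils alone were not used here.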

Additional observations from a re-analysis of the deposited data

How the results depend on the processing

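Of 99 alternative values for the 20 shares and cell ratios, 93 stayed within the counting interval of the reported value. Neither the Kupffer cell ratio nor M.4 changed direction. The alternatives reuse the same cells, so this count is no measure of robustness. Without the top 5% of UMIs, 300 of 301 shSCR cDCs and 238 of 239 shZdhhc17 cDCs remained. With at least 1000 UMIs, 294 and 236 remained, and at low mitochondrial percent 162 and 136. The shares of the initial clusters among cDCs sum to the whole, so their alternatives are not separate results. The cDC share ratio of 0.844 was below 1 in 8 of 11 alternatives. It was 1.02 among immune cells, 1.04 among myeloid cells and 1.00 at or below the median mitochondrial percent of 5.57%. Its interval included 1 in 9 of the 11, among them at least 1000 UMIs (0.896, 0.756 to 1.06) and UMIs from the lower quartile up (0.906, 0.761 to 1.08). It stayed below 1 without the top 5% of UMIs (0.843, 0.712 to 0.998). It also stayed below 1, at 0.812 (0.686 to 0.960), with the libraries matched within 10 classes of UMIs. Per neutrophil, the cDC ratio of 1.21 became 1.54 with at least 1000 UMIs and 1.76 from the lower quartile of all cells (1925 UMIs) up, with separate intervals in both. That limit lies between the library medians of neutrophils. Per pDC the ratio of 0.932 became 0.588 in cells of low mitochondrial percent, with a wide interval (0.218 to 1.59). Few pDCs remained at that setting, since their lower quartile of 6.07% lay above the limit of 5.57%. The cause of these moves was not tested. The M.4 ratio of 0.350 among cDCs stayed between 0.280 and 0.378. These settings reuse the cells by which M.4 was picked, so they are no separate support for it. The M.4 share of all cells had overlapping intervals at low mitochondrial percent (0.322). The added denominators, the cluster shares of all cells and M.4 were chosen after the data were seen. No paired analysis was possible because each group has 1 library. With 239 to 301 cDCs per library, small differences are not detectable at this depth.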
